A study of Mus musculus with 12 samples.

Results

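Chemokines are small secreted proteins that attract leukocytes, and they are grouped as CC, CXC or CX3C by the spacing of their first cysteines. 10 mouse chemokine genes were followed in the hippocampus after pilocarpine: Ccl2, Ccl7 and Ccl12, Ccl3, Ccl4 and Ccl5, Cxcl1, Cxcl2 and Cxcl10, and Cx3cl1, the single CX3C member. They were taken by gene symbol, 1 probe set per gene with the highest mean over 12 arrays, and each of the 10 had a single probe set, among 23410 probe sets to which the platform annotation gives a gene and 35556 in the table. Ccl2, Ccl7 and Ccl3 were picked for their behaviour in these arrays, Ccl2 and Ccl7 because their rise was kept in the mutants and Ccl3 because its rise was not, so that their responses to pilocarpine are described here without a test. The other 7 members were tested in every comparison.

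The study asked what the transcription factor SRF does in seizure-induced gene expression, and measured hippocampal RNA of 12 mice in 4 groups of 3, each on its own array. The mice, of both sexes and 7-10 weeks of age, were of C57/Bl6 background and carried CaMKCreERT2, a tamoxifen-activated Cre recombinase under the Camk2a promoter that is active in glutamatergic forebrain neurons; all had received tamoxifen. The heterozygous mice, which are the controls of the study and which the labels call WT or Control, retained 1 functional Srf allele, and the Srf mutants, KO in the sample titles, had both alleles floxed, so that Srf is lost in those neurons and kept in glia, vessels and blood cells. The heterozygous SE group had 40 min of status epilepticus (SE), a lasting seizure state, after pilocarpine (335 or 350 mg/kg), a muscarinic agonist given after scopolamine (1 mg/kg), which limits its peripheral effects. The mutants with pilocarpine received the same drugs and had seizures of grade 4 but did not reach SE. The heterozygous controls and mutant controls received Ringer solution. Genotype and SE therefore cannot be told apart where the response of the mutants is set against that of the heterozygous mice, and the time of dissection of mutants that did not reach SE is not given in the sources used here. Srf mutants with SE were not analysed here.

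The deposited values are robust multiarray average (RMA) levels on a log2 scale, on which 1 unit is a 2-fold difference in signal. Array medians lay between 6.78 and 6.86, and no 2 arrays were identical. Srf itself was 9.53 to 9.60 in heterozygous controls, 10.16 to 10.27 in heterozygous SE and 8.80 to 8.96 across the 6 mutants, so that the labels and the target gene go together; part of the tissue keeps the gene. Heterozygous SE animal 2 stood apart in the mean level of 9 endothelial markers, at 7.996 against 8.26 to 8.53 in the other 11 mice, and it was the lowest of its group for Ccl2 and Ccl7 and the highest for Ccl3 and Ccl4; values without it are given for these genes, and the part of this animal's endothelial signal in them was not tested. Levels depend on the probes as well as on the transcript, and no level of 1 gene is set against that of another. The hippocampus was measured as a whole, and a change in the number of cells of a type and a change in RNA per cell cannot be told apart.

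Most chemokines are made at low levels in the resting brain, and Cx3cl1, which neurons express constantly, is among the exceptions. After injury or seizures, microglia, astrocytes, endothelial cells and neurons can transcribe CC and CXC chemokines within an hour, through NF-kB, AP-1 and related factors, and their messages are short-lived because AU-rich elements are bound by decay factors. Ccl2, Ccl7 and Ccl12 act on Ccr2 of monocytes, Ccl3, Ccl4 and Ccl5 on receptors of macrophages and T cells, Cxcl1 and Cxcl2 on Cxcr2 of neutrophils, Cxcl10 on Cxcr3 of T cells, and Cx3cl1 on Cx3cr1 of microglia.

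The sequences upstream of the start sites are shown because these windows are where NF-kB, AP-1 and SRF sites are usually looked for. RefSeq windows (GRCm38.p6) of the 250 bases before the start were matched for 6 members, Ccl12, Ccl3, Cxcl1, Cxcl2, Cxcl10 and Cx3cl1. Ccl2, Ccl7, Ccl4 and Ccl5 were not matched, so that the windows cannot bear on the unlike responses of Ccl2 and Ccl7 against Ccl3. Both strands were searched for the NF-kB site, the CArG box (the SRF site), the AP-1 site (TGANTCA), the cyclic AMP response element (TGACGTCA), the TATA box (TATAAA), the interferon-stimulated response element (GAAA, NN and GAAA in a row) and the C/EBP site (TTGCNNAA). Capitals below mark every match. Positions count back from -1, the base before the start. Ccl3 lies on the minus strand at chr11:83649379-83649628, Cxcl1 on the plus strand at chr5:90890995-90891244, Cxcl2 on the plus strand at chr5:90903649-90903898, Cxcl10 on the minus strand at chr5:92348890-92349139 and Cx3cl1 on the plus strand at chr8:94771930-94772179.
Ccl3: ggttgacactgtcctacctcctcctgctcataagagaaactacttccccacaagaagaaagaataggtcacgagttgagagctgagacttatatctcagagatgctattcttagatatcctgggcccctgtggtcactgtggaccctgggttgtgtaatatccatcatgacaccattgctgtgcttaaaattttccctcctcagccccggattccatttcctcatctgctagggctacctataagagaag
Cxcl1: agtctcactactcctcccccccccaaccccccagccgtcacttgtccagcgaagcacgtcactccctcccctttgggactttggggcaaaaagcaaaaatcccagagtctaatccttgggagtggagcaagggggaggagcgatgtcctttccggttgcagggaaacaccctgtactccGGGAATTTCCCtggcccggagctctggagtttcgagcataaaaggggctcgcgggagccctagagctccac
Cxcl2: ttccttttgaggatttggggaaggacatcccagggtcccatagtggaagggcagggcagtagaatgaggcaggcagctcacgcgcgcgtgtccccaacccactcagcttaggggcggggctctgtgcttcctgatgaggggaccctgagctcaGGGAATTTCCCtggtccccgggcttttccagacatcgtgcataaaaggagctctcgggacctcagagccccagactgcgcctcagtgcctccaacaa
Cxcl10: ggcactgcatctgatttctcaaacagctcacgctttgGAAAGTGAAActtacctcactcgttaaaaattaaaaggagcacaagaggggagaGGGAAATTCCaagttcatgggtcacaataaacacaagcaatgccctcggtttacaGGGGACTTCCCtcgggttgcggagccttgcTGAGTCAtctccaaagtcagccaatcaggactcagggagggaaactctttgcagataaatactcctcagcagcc
Cx3cl1: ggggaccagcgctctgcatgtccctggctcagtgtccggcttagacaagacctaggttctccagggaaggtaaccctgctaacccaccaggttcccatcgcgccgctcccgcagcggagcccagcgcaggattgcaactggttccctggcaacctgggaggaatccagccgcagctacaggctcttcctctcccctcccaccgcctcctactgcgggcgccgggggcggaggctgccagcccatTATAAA

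Cxcl1 and Cxcl2 held the same NF-kB match, from -71 in Cxcl1 and from -97 in Cxcl2, inside a run of 14 identical bases, GGGAATTTCCCTGG. The match reads as an NF-kB site on both strands, at overlapping places. Cxcl10 held NF-kB matches from -159 and, overlapping each other, from -104 and -103, an AP-1 match from -74 to -68 and an interferon-stimulated response element from -213 to -204. The letters of the TATA box were matched from -6 to -1 in Cx3cl1, directly before the start, and from -31 to -26 in Ccl12. In the Ccl3 window none of the 7 motifs was found, and no CArG box, cyclic AMP response element or C/EBP site was found in any of the 6 windows. Among 32851 RefSeq promoter windows of the same length, 7.25% held the NF-kB match, 6.75% the AP-1 match, 2.98% the interferon-stimulated response element, 12.4% the TATA box and 1.47% the CArG box. These matches describe letters in the window and were not tested as sites.

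**Figure D1:**
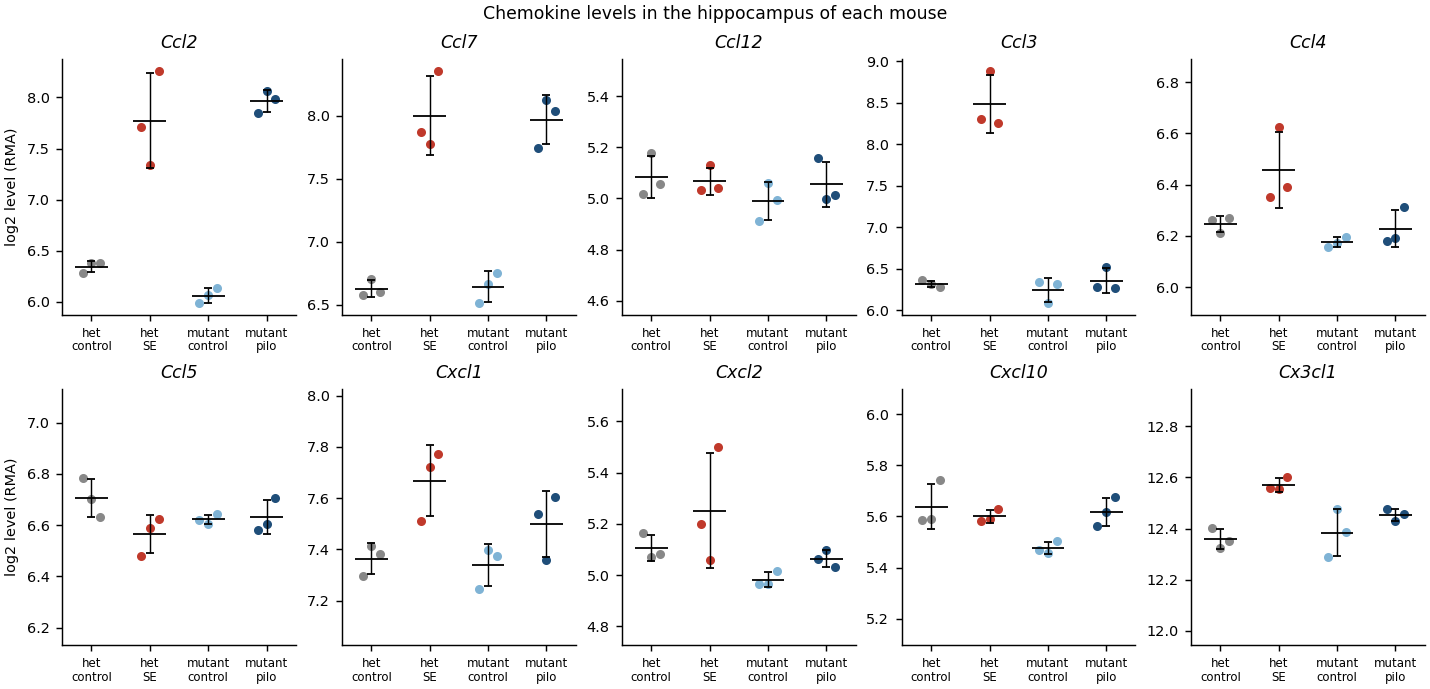
Log2 level (RMA) of each of the 10 chemokine genes in every mouse, by group (het, heterozygous; pilo, pilocarpine), with points for mice, a line for the mean and bars for the SD of 3 mice; each panel has its own scale. Ccl2 and Ccl7 stand above their controls in both pilocarpine groups, Ccl3 stands apart in the heterozygous SE mice, at 8.26 to 8.89, and the other panels span far less.

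Ccl2 (MCP-1), the main attractant of Ccr2-bearing monocytes, was 6.28, 6.37 and 6.38 in the heterozygous controls and 7.71, 7.34 and 8.26 in the heterozygous SE mice. In the mutants it was 5.98, 6.07 and 6.13 in controls and 7.85, 8.07 and 7.99 after pilocarpine. Every mouse given pilocarpine lay above every control, and the heterozygous SE mice were far more spread (SD 0.46) than the mutants with pilocarpine (SD 0.11). The log2 difference from controls was 1.43 in heterozygous SE (standard error 0.16), a fold of 2.69, and 1.91 in mutants (standard error 0.16), a fold of 3.76. The mutant response minus the heterozygous response was 0.48 (standard error 0.23). This value includes the lower mutant controls, with a mean of 6.06 against 6.34 in heterozygous controls. The pilocarpine groups overlapped, with means of 7.77 in heterozygous SE and 7.97 in mutants. Without heterozygous SE animal 3, which was the highest of its group, the heterozygous value was 1.19 and the difference of the responses 0.72, and without animal 2 they were 1.65 and 0.26, so that the size of the difference between the genotypes moved with single mice.

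Ccl7 (MCP-3), a neighbour of Ccl2 that shares its receptor, was 6.58, 6.71 and 6.60 in heterozygous controls and 7.87, 7.78 and 8.36 in heterozygous SE. In mutants it was 6.51, 6.67 and 6.75 in controls and 7.75, 8.13 and 8.04 with pilocarpine. The pilocarpine groups overlapped each other and lay wholly above their controls. Its log2 difference was 1.37 in heterozygous SE and 1.33 in mutants (standard error 0.13 each), a fold of 2.59 and 2.51, and the responses differed by -0.046, a value that turned to 0.13 without heterozygous SE animal 3. Without animal 2 the heterozygous difference was 1.49. Ccl2 and Ccl7 put the mice in the same order within each pilocarpine group, with animal 3 highest and animal 2 lowest in heterozygous SE and animal 2 highest and animal 1 lowest in the mutants. After subtraction of the heterozygous control mean, their root mean square difference over 12 arrays was 0.23, against 0.94 between Ccl2 and Ccl3.

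Ccl12 (MCP-5), the further Ccr2 ligand of this set, was 5.02 to 5.18 in heterozygous controls, 5.03 to 5.13 in heterozygous SE, 4.91 to 5.06 in mutant controls and 4.996 to 5.16 in mutants with pilocarpine. All 4 groups overlapped. Its difference was -0.017 in heterozygous SE (95% interval -0.15 to 0.11; limma adjusted p = 0.911) and 0.066 in mutants (95% interval -0.066 to 0.20; limma adjusted p = 0.679). It stayed below the dim limit of 5.50, the 30th percentile of all values, where arrays resolve changes poorly.

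Ccl3 (MIP-1 alpha), a ligand of Ccr1 that microglia release early, was 6.36, 6.32 and 6.28 in heterozygous controls and 8.31, 8.89 and 8.26 in heterozygous SE. In the mutants it was 6.34, 6.08 and 6.32 in controls and 6.28, 6.52 and 6.26 with pilocarpine. The heterozygous SE mice lay above the other 9 mice by more than 1 log2 unit, and the mutants with pilocarpine overlapped their controls. The difference was 2.17 in heterozygous SE (standard error 0.14), a fold of 4.49, and 0.11 in mutants (standard error 0.14). The mutant minus the heterozygous response was -2.06 (standard error 0.20). Without heterozygous SE animal 2, the highest mouse, the heterozygous difference was 1.96 and the mutant minus the heterozygous response -1.85. These are the values that chose Ccl3, and they carry no test.

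Ccl4 (MIP-1 beta) follows Ccl3 on chromosome 11 and likewise attracts macrophages and T cells. It was 6.26, 6.21 and 6.27 in heterozygous controls, 6.35, 6.63 and 6.39 in heterozygous SE, 6.16, 6.17 and 6.20 in mutant controls and 6.18, 6.19 and 6.31 in mutants with pilocarpine. The 3 heterozygous SE mice lay above their controls, and animal 2, highest for Ccl3, was also highest for Ccl4. The difference of 0.21 (standard error 0.066; 95% interval 0.066 to 0.35; limma adjusted p = 0.0597) did not pass the threshold of 0.05, but did so without heterozygous SE animal 1 (adjusted p = 0.0307) and after centring on array medians, a second quantile normalization or array weights; without SE animal 2 the difference was 0.12 (adjusted p = 0.173). In mutants it was 0.054 (adjusted p = 0.775), and the responses differed by -0.16 (95% interval -0.36 to 0.047; adjusted p = 0.469).

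Ccl5 (RANTES), a T cell attractant that in immune cells appears late after activation, was 6.78, 6.70 and 6.63 in heterozygous controls and 6.48, 6.59 and 6.62 in heterozygous SE. The SE mice lay just below the controls. The difference was -0.14 (standard error 0.054; limma adjusted p = 0.123). In mutants the levels were 6.61 to 6.64 in controls and 6.58 to 6.71 with pilocarpine, a difference of 0.0084 (adjusted p = 0.967).

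Cxcl1 (KC), a neutrophil attractant, was 7.30, 7.41 and 7.38 in heterozygous controls and 7.51, 7.72 and 7.77 in heterozygous SE. The groups did not overlap. The rise of 0.31 (standard error 0.079; 95% interval 0.13 to 0.48) was a fold of 1.24 and passed the test (limma adjusted p = 0.0237); the call rested on single mice, and adjusted p rose to 0.0909 without heterozygous control animal 1, 0.0601 without control animal 3, 0.0783 without SE animal 2 and 0.104 without SE animal 3. In mutants Cxcl1 was 7.24, 7.40 and 7.37 in controls and 7.54, 7.36 and 7.61 with pilocarpine, a difference of 0.16 (adjusted p = 0.371). The responses differed by -0.14 (95% interval -0.39 to 0.098; adjusted p = 0.605), so that a different response of the genotypes was not shown.

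Cxcl2 (MIP-2), which shares Cxcr2 with Cxcl1, was 5.16, 5.07 and 5.08 in heterozygous controls and 5.20, 5.06 and 5.50 in heterozygous SE. Animal 3 alone stood apart, and it was also the highest for Ccl2, Ccl7 and Cxcl1. The difference was 0.15 (standard error 0.085; limma adjusted p = 0.338) in heterozygous SE and 0.081 (adjusted p = 0.728) in mutants, in which levels were 4.97 to 5.02 in controls and 5.03 to 5.10 with pilocarpine. Cxcl2 also stayed below the dim limit.

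Cxcl10 (IP-10), induced by interferons and an attractant of T cells, was 5.59, 5.59 and 5.74 in heterozygous controls and 5.58, 5.59 and 5.63 in heterozygous SE, a difference of -0.038 (limma adjusted p = 0.723). In mutants the controls, at 5.47, 5.46 and 5.50, lay below the pilocarpine group, at 5.56, 5.62 and 5.67. That difference of 0.14 (standard error 0.050) had an unadjusted p of 0.0151 in limma's test and an adjusted p of 0.192, and the difference of the responses, 0.18, an adjusted p of 0.225. The mutants with pilocarpine overlapped the heterozygous controls.

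Cx3cl1 (fractalkine), which neurons display on their surface and shed, was 12.40, 12.32 and 12.35 in heterozygous controls and 12.56, 12.55 and 12.60 in heterozygous SE. The rise of 0.21 (standard error 0.049; 95% interval 0.10 to 0.32) was a fold of 1.16 and passed the test (limma adjusted p = 0.0134). Without heterozygous control animal 2 the adjusted p was 0.0569, and without SE animal 3 it was 0.0579. In mutants the levels were 12.29, 12.47 and 12.39 in controls and 12.48, 12.43 and 12.46 with pilocarpine, a difference of 0.070 (adjusted p = 0.567), and the responses differed by -0.14 (95% interval -0.29 to 0.010; adjusted p = 0.357). Its receptor Cx3cr1 moved the other way in heterozygous SE, from 9.18 to 9.27 in controls to 8.99 to 9.07. The difference was -0.19 (standard error 0.049, limma adjusted p = 0.0264). Low levels of Cx3cr1 were not particular to SE, at 8.90 to 9.04 in mutant controls and 8.82 to 8.93 in mutants with pilocarpine. Mutant controls lay wholly below heterozygous controls, as they did for 7.46% of all probe sets. That difference of -0.24 was not called by limma.

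**Figure D2:**
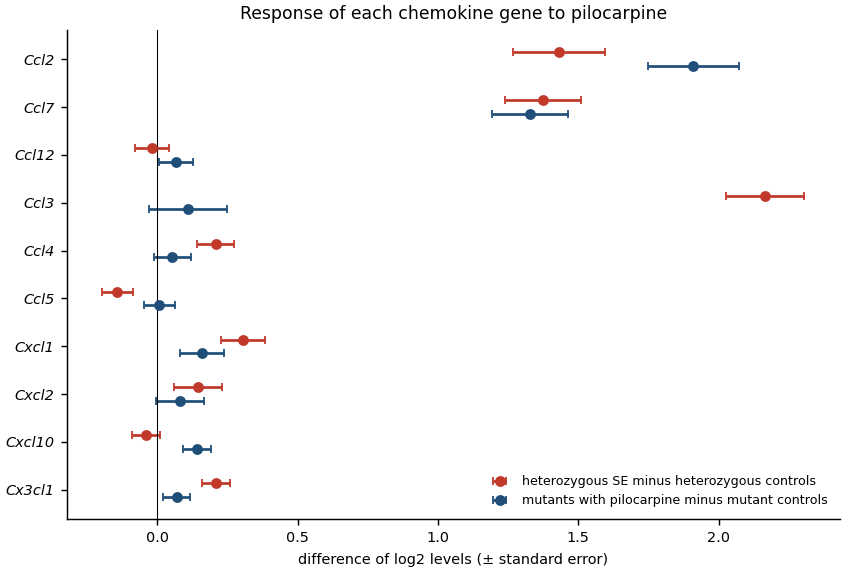
Difference of log2 levels from the controls of the same genotype for each chemokine gene, with bars for the standard error from the fit of 12 arrays. Ccl2 and Ccl7 lie between 1.33 and 1.91 in both genotypes, Ccl3 at 2.17 in heterozygous SE against 0.11 in mutants, and the other genes within 0.31 of 0.

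Counted over the set, 2 of the 7 tested members, Cxcl1 and Cx3cl1, rose in heterozygous SE and 0 fell in limma's test, where 5.08% of all 23410 probe sets were called higher and 6.93% lower; 4 of the 7 had an unadjusted p under 0.05, against 23.8% of all probe sets. Of the same 7, Ccl4, Cxcl1 and Cx3cl1 lay wholly above their controls in heterozygous SE, as did 10.6% of all probe sets, and Ccl5 wholly below, as did 19.8%. In mutants Cxcl2 and Cxcl10 lay wholly above their controls, against 7.04% of all probe sets, and 0 of the 7 wholly below, against 11.4%. With 2 of 7, the count depends on single mice and was 0 to 3 when each of the 12 mice was left out in turn: 0 without SE animal 3, 1 without SE animal 2 or any 1 of the 3 heterozygous controls, and 3 without SE animal 1. In mutants with pilocarpine 0 of the 7 passed, against 0.871% of all probe sets called higher and 0.965% lower, and 1 had an unadjusted p under 0.05, against 14.8%. In the difference of the responses 0 of the 7 passed, against 2.12% called lower and 1.47% higher over all probe sets, and 1 had an unadjusted p under 0.05, against 15.8%. The median log2 difference of the 10 genes was 0.21 in heterozygous SE and 0.096 in mutants, beside -0.026 and -0.0036 over all probe sets. These medians include the 3 picked genes and are descriptions.

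In the absence of pilocarpine, the genotypes were compared for all 10 members, since none was picked on this comparison. 0 of the 10 passed limma's test, with 1 at an unadjusted p under 0.05 against 8.73% of all probe sets, and 0.0812% of all probe sets were called lower in mutants and 0.0384% higher. The value with the smallest p was that of Cxcl10, at -0.16 (standard error 0.050; unadjusted p = 0.00711, adjusted p = 0.415), and the largest difference was that of Ccl2, at -0.28 (standard error 0.16; 95% interval -0.64 to 0.072; adjusted p = 0.662). The 3 mutant controls lay below the 3 heterozygous controls for 4 genes, Ccl2, Ccl4, Cxcl2 and Cxcl10, as they did for 7.46% of all probe sets, and above them for 0 genes, against 6.1%. With 3 mice against 3 an exact permutation test cannot give a p under 0.1. Ccl3 differed by -0.074 (95% interval -0.38 to 0.23; adjusted p = 0.920) and Ccl7 by 0.014 (95% interval -0.28 to 0.31; adjusted p = 0.988).

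The members lie in gene clusters, and neighbours did not move together throughout. On chromosome 11, RefSeq orders Ccl2, Ccl7, Ccl11, Ccl12 and Ccl8, with 1 long non-coding RNA gene between Ccl11 and Ccl12. Ccl2 and Ccl7, the first of the row, carried the large values in both genotypes. Ccl11 (eotaxin), the next gene, was -0.050 in heterozygous SE and -0.099 in mutants (limma adjusted p = 0.686 and 0.482), and Ccl8 (MCP-2), the last, 0.024 and 0.033 (adjusted p = 0.844 and 0.832). In a separate row on chromosome 11 that runs from Ccl5 over Ccl9 and Ccl6 to Ccl3 and Ccl4, Ccl3 alone exceeded 1 log2 unit in heterozygous SE. Ccl9 was -0.050 there (adjusted p = 0.914) and Ccl6 -0.12 (adjusted p = 0.425). The mutant values were 0.24 for Ccl9 (adjusted p = 0.589) and 0.0015 for Ccl6 (adjusted p = 0.996). On chromosome 5, Cxcl1 and Cxcl2 close a row of 7 measured chemokine genes, and of the other 5, Cxcl5, Ppbp, Pf4, Cxcl3 and Cxcl15, 0 passed the test in either genotype. Ccl11, Ccl8, Ccl9 and Ccl6 are named as neighbours and not for their values.

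**Figure D3:**
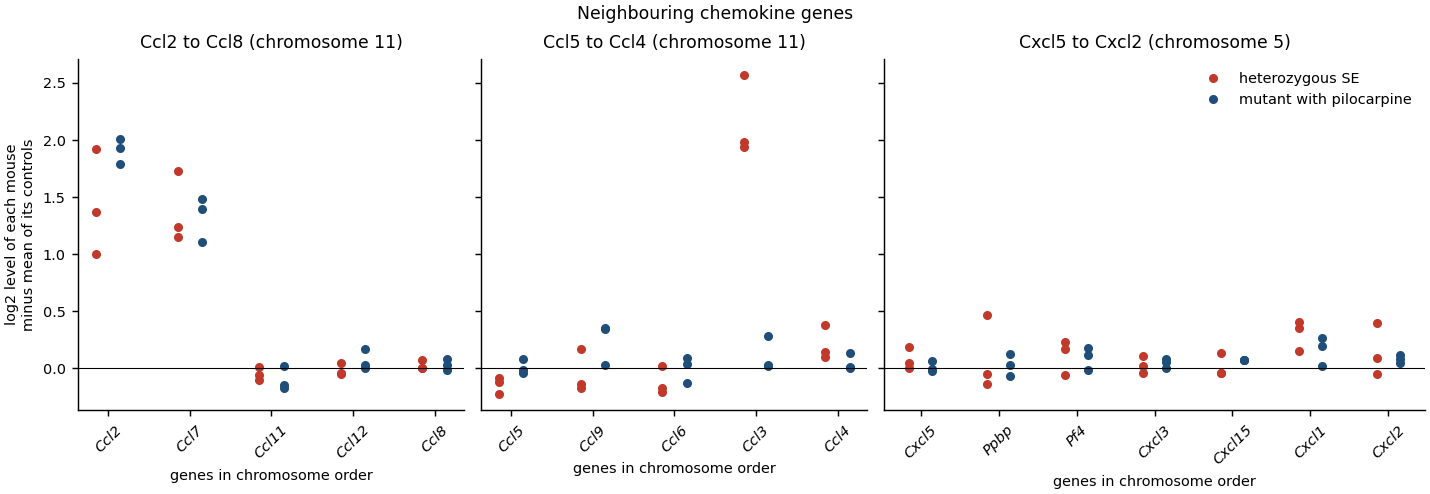
Log2 level of each pilocarpine-treated mouse minus the mean of the 3 controls of its genotype, for the measured chemokine genes of 3 rows of neighbours, in chromosome order and not to distance. Ccl2 and Ccl7 stand near 1 to 2 in both genotypes, Ccl3 near 2 in heterozygous SE, and single mice for the other genes within 0.47 of 0.

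Of 28 further chemokine ligand genes, 26 were measured, and 0 were called in any of the 4 comparisons by limma, with 4, 5, 1 and 4 at an unadjusted p under 0.05 in heterozygous SE, in mutants, between controls and in the difference of the responses, where the shares of all probe sets at that p were 23.8%, 14.8%, 8.73% and 15.8%. Under 5 alternatives 1 or 2 of them were called lower in heterozygous SE, and under 3 alternatives 1 was called higher in mutants. In the difference of the responses 1 was called higher with array weights or without mutant control replicate 3. The differences of these 26 genes lay between -0.25 and 0.13 in heterozygous SE and between -0.36 and 0.34 in mutants. The 7 members not picked for their response spanned -0.14 to 0.31 in heterozygous SE and 0.0084 to 0.16 in mutants. Of the chemokine receptor genes, 22 were measured. Cx3cr1, of microglia, was the single receptor called, 1 of 22 in heterozygous SE, where 6.93% of all probe sets were called lower; its call was lost in 6 of 23 alternatives. Ccr1, Ccr2, Ccr3, Cxcr2 and Cxcr3, which bind the members, lay between -0.044 and 0.040 in heterozygous SE (lowest limma adjusted p = 0.66) and between -0.14 and 0.14 in mutants (lowest adjusted p = 0.311). Among 8 genes for proteases that process or shed chemokines, such as Adam10 and Adam17, the sheddases of Cx3cl1, 0 were called by limma in any comparison, with 2 at an unadjusted p under 0.05 in heterozygous SE, 2 in the difference of the responses and 0 in the others.

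**Figure D4:**
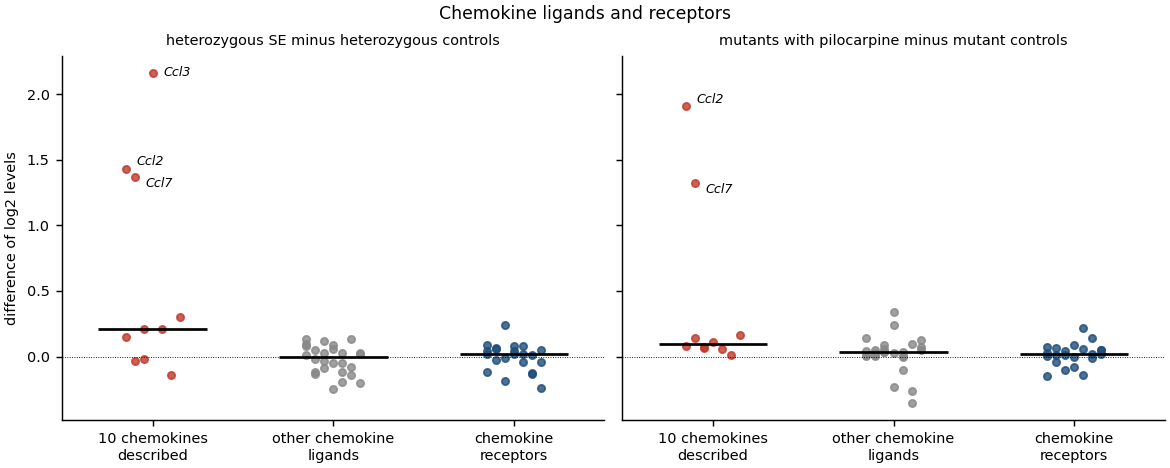
Difference of log2 levels from controls in heterozygous SE (left) and in mutants with pilocarpine (right) for the 10 chemokines, 26 other ligand genes and 22 receptor genes, 1 point per gene and a line at the median. Ccl2, Ccl7 and, in heterozygous SE, Ccl3 exceed 1, and the other ligand genes lie between -0.25 and 0.13 on the left and -0.36 and 0.34 on the right.

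Genes known to induce chemokine transcription or to limit chemokine messages were taken from a list of 27, of which 26 were measured. The list was drawn up with earlier results of these data known. Its counts in each comparison therefore describe the list and do not test whether such regulators respond more often than other genes. In heterozygous SE 15 rose and 0 fell, with a median of 0.38, against 5.08% of all probe sets called higher. The 6 with the largest values were Fos at 5.34, Fosb at 5.25, Junb at 3.34 and Jun at 1.66, which form AP-1, Atf3 at 3.69, a stress-induced factor that can repress chemokine genes, and Zfp36 at 1.25, the decay factor tristetraprolin, which binds AU-rich messages (limma adjusted p at most 2.5e-05 for each of these log2 differences). In mutants 7 rose and 0 fell, with a median of 0.17, against 0.871% of all probe sets called higher and 0.965% lower. Among these 7, Fos (2.72), Fosb (2.53) and Junb (1.24) were followed by Socs3 at 0.68, an inhibitor of cytokine signalling, Zfp36l2 at 0.43, a relative of tristetraprolin, and Tnfaip3 at 0.42, the NF-kB inhibitor A20 (adjusted p at most 0.0160 for each). The call for Tnfaip3 was lost without mutant control animal 2 (adjusted p = 0.0550) and without mutant pilocarpine animals 1 (0.0679) or 2 (0.0537), and also, at the same value, when only the compared groups were fitted (0.0674).

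In the difference of the responses, 10 of the 26 were lower in the mutants and 0 higher, with a median of -0.21, against 2.12% of all probe sets called lower. The 6 largest were Atf3 at -3.23, Fosb at -2.72, Fos at -2.62, Junb at -2.09, Jun at -1.37 and Il1a at -1.12 (limma adjusted p at most 0.00675 for each). The values of Fosb and Fos include higher mutant controls, a difference that limma did not call. Mutant control means were 8.46 for Fosb and 7.04 for Fos, against 7.87 and 6.68 in heterozygous controls. Il1a encodes interleukin-1 alpha, a cytokine that induces chemokines. It was 4.89 to 5.20 in heterozygous controls, 5.84 to 6.46 in heterozygous SE, 4.92 to 5.27 in mutant controls and 4.98 to 5.19 in mutants with pilocarpine, and so stood apart in the same group as Ccl3. Its means in the other 3 groups were below the dim limit of 5.50, so that the sizes of its differences are uncertain. Socs3, at 0.99 and 0.68, and Tnfaip3, at 0.42 in both genotypes, differed between the responses by -0.31 (limma adjusted p = 0.216) and -0.0026 (adjusted p = 0.995). For Socs3 a smaller response in the mutants was neither shown nor excluded. Zfp36l2 had means of 9.32 and 10.12 in heterozygous controls and SE, and of 9.30 and 9.73 in mutant controls and mutants with pilocarpine. The classical inducers were picked for their role and not by size. Tnf was 0.12 in heterozygous SE and 0.23 in mutants (adjusted p = 0.227 and 0.0701), Il1b 0.20 and 0.10 (0.132 and 0.603) and Il6 0.075 and 0.027 (0.462 and 0.880). These 3 cytokine genes did not pass the test in either genotype, and Il6, at 4.23 to 4.48, was below the dim limit in every mouse.

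**Figure D5:**
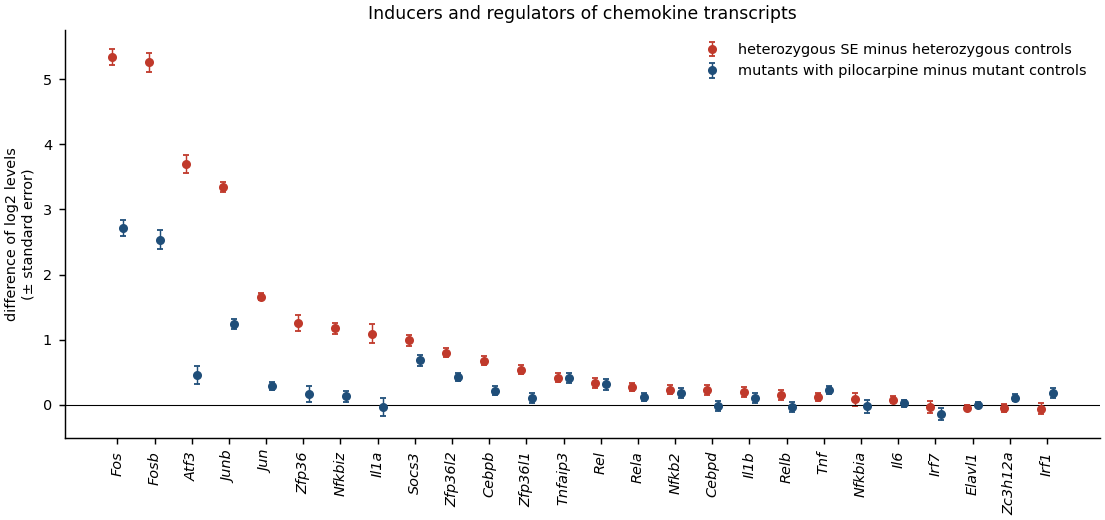
Difference of log2 levels from controls, with bars for the standard error, for 26 inducers and regulators of chemokine transcripts, ordered by the heterozygous SE value. Most of the genes at the left, from Fos to Il1a, lie lower in mutants with pilocarpine. Socs3, at 0.68 in these mutants, also lies below its heterozygous SE value, and Tnfaip3 lies at 0.42.

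Genes whose pattern over the 12 arrays was most like that of Ccl2, by the root mean square difference after subtraction of the heterozygous control mean and among 19928 genes, were Dio2 (0.43), Zdbf2 (0.44), Mir132 (0.45), Map3k19 (0.45) and Pcsk1 (0.49). All 5 were higher in both pilocarpine groups, by 1.04 to 1.43 in heterozygous SE and by 0.84 to 1.23 in mutants, so that no gene outside the members came as close to Ccl2 as Ccl7 did. Those most like Ccl3 were Kif18a (0.19), 4931440P22Rik (0.24), Vps37b (0.25), Lcmt2 (0.26) and Gla (0.26). They were higher by 1.81 to 2.28 in heterozygous SE and differed by -0.027 to 0.25 in mutants. Ccl4, the neighbour of Ccl3, stood at 0.99 from it. These likenesses describe the arrays and include the values by which Ccl2 and Ccl3 were picked.

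Markers of the cells that make or answer chemokines were read beside these results; over all probe sets 5.08% were called higher and 6.93% lower in heterozygous SE. The mean log2 level of 9 monocyte and neutrophil markers was 5.62 to 5.73 over the 12 mice, with 0 of 9 called in any comparison and Ccr2, Plac8 and Ngp below the dim limit in every group. Of 8 lymphocyte markers 0 were called and 5 were below that limit. Of 9 microglial markers, with mean levels of 8.61 to 8.85, Cx3cr1 and P2ry12 (-0.23; limma adjusted p = 0.0270) were lower in heterozygous SE and 7 were not called. Of 10 astrocyte markers, Sox9 was higher in heterozygous SE by 0.46 (limma adjusted p = 0.000674) and lower in the difference of the responses by -0.48. Of the 9 endothelial markers, Tek was lower in heterozygous SE by -0.45 (adjusted p = 0.0227). Against 7.81 to 7.95 in controls, Tek was 7.15, 7.60 and 7.63 in heterozygous SE, where the lowest mouse stood apart. Of 10 markers of pericytes and smooth muscle, limma called Cspg4 higher there, at 0.31, and Pdgfrb lower, at -0.48. Of 9 markers of hippocampal neurons, with mean levels of 10.96 to 11.16, 0 were called in any comparison. In mutants with pilocarpine, where 0.871% of all probe sets were called higher and 0.965% lower, 0 of these markers were called by limma. At an unadjusted p under 0.05 were 4 of 9 microglial, 2 of 10 astrocyte, 2 of 9 endothelial and 2 of 10 pericyte and smooth muscle markers, against 14.8% of all probe sets. The values lay near those of heterozygous SE for Tek (-0.42, adjusted p = 0.0886), P2ry12 (-0.20, adjusted p = 0.131) and Cspg4 (0.27, adjusted p = 0.0976). Each of these had all 3 mice on the same side of their controls, where 7.04% of all probe sets lay wholly above and 11.4% wholly below. Sox9 was -0.020 (adjusted p = 0.938), Pdgfrb was -0.093 (adjusted p = 0.592), and Cx3cr1 overlapped its controls. Of 8 choroid plexus markers 0 were called in any comparison, and red blood cells had 1 measured marker, which was not called. The part of these markers in the chemokine values was not tested.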

How the data were processed

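Total RNA of the hippocampus of 12 mice was amplified by the whole-transcript sense target assay and hybridised to Affymetrix Mouse Gene ST arrays. The authors processed the arrays with Affymetrix Expression Console and deposited RMA values on a log2 scale, normalized across arrays; no counts or depth exist for arrays, and the number of arrays limits the precision. The deposited log2 values were used as they are. RMA compresses differences at low signal.

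Samples were grouped by title and characteristics. limma 3.58.1 in R 4.3.3 (lmFit and eBayes, a mean for each of 4 groups, no block) was fitted over the 23410 probe sets with a gene, with two-sided p-values adjusted by the Benjamini-Hochberg method and calls at an adjusted p under 0.05. Each pilocarpine group was compared with the controls of its genotype, the control groups of the genotypes were compared with each other, and the heterozygous response was subtracted from that of the mutants. Symbols came from the platform annotation, and 21698 of 21789 probe sets with 1 gene were found by Entrez identifier in the RefSeq gene table (GRCm38.p6); 1621 probe sets with several genes were tested but not named. The fit was tested on simulated data with known changes.

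The members and gene lists were chosen with earlier results of these data known. Named beside the members were up to 6 genes per list and comparison with the largest change among those called, the 5 genes most like Ccl2 and the 5 most like Ccl3, and marker genes called; cluster neighbours, receptors of the members and Tnf, Il1b and Il6 were named for their role. Because Ccl2, Ccl7 and Ccl3 were picked on their responses, their p-values for those comparisons were left out. Animal numbers 1 to 3 name different mice and do not pair them. Promoter windows were read from RefSeq with pandas 2.3.3.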

Additional observations from a re-analysis of the deposited data

Results flagged for a closer look

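Flagged were 7 of the genes described here whose response differed between the mutants, which did not reach SE, and the heterozygous mice, which did. They are not all such genes. For example, limma also called Srf lower in this difference, at -0.66 (adjusted p = 0.000236), and Sox9, at -0.48. For Ccl3 the mutant minus the heterozygous log2 response was -2.06; the gene was chosen for this value, so that no test is given. The other 6 were called in limma's test of the difference, with adjusted p at most 0.00675. They come from the list of regulators, which was drawn up with earlier results of these data known. The values were -3.23 for Atf3, -2.72 for Fosb, -2.62 for Fos, -2.09 for Junb, -1.37 for Jun and -1.12 for Il1a. Genotype and SE cannot be told apart in these differences.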

How the results depend on the processing

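Counts were recomputed under 24 alternatives and single genes under 21 to 23 of them, which changed the groups fitted, scaling, weights, covariates, filters and limits or left out 1 mouse. The number of tested members called higher in heterozygous SE was 2, and it was 0 when 2-fold at an adjusted p under 0.001 was required and 0 to 3 when 1 mouse was left out; the counts of tested members in the other comparisons stayed at 0. Small differences turned sign: Ccl12 in heterozygous SE became 0.0033 after centring on array medians (-0.050 to 0.029 leaving out 1 mouse), Ccl5 in mutants -0.010 with array weights (-0.029 to 0.033), and Ccl7 between controls -0.019 with the level of Xist, a marker of female mice, as a covariate (-0.039 to 0.080). Leaving out 1 mouse alone turned the sign of Cxcl10 in heterozygous SE (-0.064 to 0.013), of Ccl3 (-0.12 to 0.0081), Cxcl1 (-0.059 to 0.022) and Cx3cl1 (-0.021 to 0.072) between controls, and of Cxcl2 in the difference of the responses (-0.16 to 0.057). Ccl4 in heterozygous SE was called after median centring (limma adjusted p = 0.0287), repeated quantile normalization (0.0237) or array weights (0.0448). The cause was not tested.

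With the animal number as a replicate block, Cx3cr1 in heterozygous SE stayed at -0.19 with an adjusted p of 0.0528, and no call of a member changed; same-numbered mice did not deviate together (r of -0.31 to 0.32 over 18 pairs), and 3 of 12 arrays correlated best with their own number. With Xist as a covariate the Cx3cr1 value had an adjusted p of 0.0506. Called regulators numbered 8, 3 and 6 at the stricter limit, against 15, 7 and 10. Other ligands called lower in heterozygous SE numbered 2 with array weights, with only the compared groups or without mutant control replicate 3, and 1 without mutant control replicate 2 or mutant pilocarpine replicate 3; 1 was called higher in mutants with the replicate block, with array weights or without mutant pilocarpine replicate 3. Array weights or leaving out mutant control replicate 3 also called 1 higher in the difference of the responses. The mean over several probe sets of a gene could not differ, since each member has 1. Ccl12 and Cxcl2 lay below the dim limit, so that a small change of either was not detectable.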
